A study of Mus musculus with 4 samples.

Results

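Genes with more than 50 kb of intron were examined in thymic invariant natural killer T (iNKT) cells, innate-like lymphocytes that see lipids on CD1d through a semi-invariant antigen receptor. Members were chosen by length and depth of coverage: a listed exon length above 0, an intron length (region less exon length) over 50000 bases, and at least 20 unique exon reads in each of the 4 libraries. This gave 1819 of the 46517 genes in the table (3.91%), or 22.0% of the 8261 genes that met the same minimum of exon reads. A further minimum on intron reads was not applied, so the intron values took no part in the choice, whereas the exon reads did.

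The libraries came from thymic iNKT cells of C57BL/6J mice sorted at stage 1 (CD24-NK1.1-T-bet-), with 2 libraries of a group named Control and 2 of a group named Prmt5 KO. The genotype given for Prmt5 KO is Prmt5 flox/D with Cd4-Cre. For Control the label gives both Prmt5 flox/D and Prmt5 flox/+ Cd4-Cre, and which of the libraries had which is not stated, so a Control library may carry 1 deleted allele or the Cre. Cd4-Cre acts from the CD4+CD8+ thymocyte stage onwards in all cells of that lineage, not in iNKT cells alone. Whether each library is from its own mouse is not stated in the labels, and p-values therefore measure spread between libraries that may be technical. Prmt5 itself, whose reads were counted over the whole gene without a view of the deleted part, had 114 and 117 exon reads per 1000000 (CPM, scaled by TMM) in the Control libraries and 100.2 and 139 in those labelled Prmt5 KO, a log2 difference of 0.05 ± 0.32 (SE; edgeR adjusted p = 0.991). The count therefore does not show the knockout, and the group is called by its label throughout.

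An intron is transcribed with its gene and removed by the spliceosome, often while the polymerase is still on the gene, and its RNA is then degraded. Reads within introns can come from unspliced or partly spliced transcripts and from lariats, but also from a transcript of another gene that lies within the intron or from other sources, and a count does not tell these apart. The longer the intron, the more bases of it there are for each finished mRNA. PRMT5 is a methyltransferase that places symmetric dimethylarginine on, among other proteins, the Sm proteins of the spliceosome, and its loss is known from other cells to raise the retention of some introns. Exon-exon reads, which cross a splice junction, are direct products of splicing.

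The libraries differed in depth, and Prmt5 KO 1 stood apart. Control 1, Control 2, Prmt5 KO 1 and Prmt5 KO 2 held 4817807, 3886087, 11674023 and 4536094 unique exon reads, so Prmt5 KO 1 was the deepest. Among 1180 genes with over 50 kb of intron but 0 unique exon reads in every library, the median gene had 2.50, 2.39, 13.99 and 2.38 unique intron reads per Mb of intron per 1000000 exon reads (normalised reads per Mb). Genes that gave no exon read thus had a higher floor of intron reads in Prmt5 KO 1 than in the other 3 libraries. T and iNKT cell markers, 10 of 10 of them above 0, summed to 6632, 7386, 4708 and 7436 CPM. Myeloid markers summed to 2.05, 1.65, 17.7 and 11.7 CPM, with Adgre1 and Lyz2 at 0, and most of the sum in those labelled Prmt5 KO was Itgam, at 2.05, 0, 14.3 and 8.27. Markers of thymic stroma summed to 2.87, 0.55, 7.21 and 9.41 CPM, with Dcn and Krt5 at 0, and markers of double-positive thymocytes to 21.8, 24.2, 30.5 and 3.67, with Ptcra and Rag1 at 0. The part of depth, of this floor and of the marker levels in the results was not tested. In bulk libraries, more cells with a transcript and more transcript per cell cannot be told apart.

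The members ran from 50039 to 1491508 bases of intron, with a median of 87254, and together hold 217.8 Mb of intron. Of the 1819, 723 had over 100 kb and 1756 were annotated as protein coding in GENCODE M21. For the 1269 with the same coordinates in that annotation, the median gene had 17 introns, the longest of which made up 30.3% of its intron bases. The region of 1172 members overlapped another gene of the table. Just inside the length limit lay St3gal6 (50039 bases), Fam63b (50080) and Pccb (50096), and just outside it Trmt2b (49998), Lnp (49991) and Nufip2 (49975). At the minimum of exon reads, Cep128, Chchd6 and Rreb1 had 20 in their lowest library, while Lpp, Bach2 and Peak1, also with long introns, had 19 and were left out. Pccb showed intron shares of 7.35%, 2.94%, 5.99% and 5.68%, and Nufip2, on the other side of the limit, 6.04%, 12.0%, 12.0% and 14.4% in Control 1, Control 2, Prmt5 KO 1 and Prmt5 KO 2.

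Some of these introns carry microRNAs, which are in many cases, though not all, cut from the intron by Drosha. RefSeq (build GRCm38.p6) places 81 hairpins, on the chromosomes searched, in introns of 77 members on the same strand and outside any GENCODE M21 exon of the host. They give 134 mature miRNAs with 130 different seeds, the bases 2 to 8 through which a miRNA pairs with its targets. Only 4 seeds are shared. The following are examples from known miRNA families or pairs that share a seed within 1 host, with the seed in capitals. They were chosen after the values of their hosts were seen, and other known families were left out.
mmu-let-7f-5p, in Huwe1: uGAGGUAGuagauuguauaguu
mmu-miR-98-5p, in Huwe1: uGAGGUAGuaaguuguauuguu
mmu-miR-30c-5p, in Nfyc: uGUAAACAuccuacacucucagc
mmu-miR-30e-5p, in Nfyc: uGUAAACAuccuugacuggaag
mmu-miR-342-3p, in Evl: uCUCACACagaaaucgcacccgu
mmu-miR-33-5p, in Srebf2: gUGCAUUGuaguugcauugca
mmu-miR-128-3p, in R3hdm1: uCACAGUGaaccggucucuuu

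The first 2 of these lie at chrX:151912353-151912374 and chrX:151913229-151913250 on the plus strand, within the 111 kb of intron of Huwe1, a ubiquitin ligase. Huwe1 had 4, 22, 96 and 16 unique intron reads, and intron shares of 0.78%, 11.8%, 6.42% and 6.58%, so Control 2 was the highest and Control 1 the lowest. The pair in Nfyc, a subunit of the CCAAT-binding factor, lies at chr4:120769584-120769606 and chr4:120772660-120772681 on the minus strand. Nfyc showed intron shares of 8.21%, 5.07%, 11.3% and 9.07%, with both libraries labelled Prmt5 KO above both Control libraries. Evl, an actin regulator, holds miR-342 at chr12:108658680-108658702 (plus strand) and had intron shares of 11.1%, 21.2%, 25.5% and 22.0%. Srebf2, the transcription factor of cholesterol synthesis, holds miR-33 at chr15:82198127-82198147 (plus strand). Its share was 6.02% and 5.45% in the Control libraries and 15.7% and 15.7% in those labelled Prmt5 KO. R3hdm1 holds miR-128 at chr1:128202404-128202424 (plus strand), with shares of 12.0%, 13.9%, 21.3% and 23.8%. Among hosts not shown, the groups overlapped in Tmem164 (miR-652), with shares of 4.67%, 14.0%, 11.9% and 7.36%. They also overlapped in Rnf130 (miR-340), with 10.3%, 19.4%, 15.6% and 0.55%. Over all genes tested below, 39.4% had a higher share in both libraries labelled Prmt5 KO, and the hosts as a set were not tested against this. These reads measure the host intron and not the mature miRNA.

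At the other end of the genes, RefSeq promoters (250 bases before to 50 after the start, GRCm38.p6) were matched for 1413 of the 1819 members. Their median GC content was 64.7%, beside 61.0% for 3835 genes with 5 to 50 kb of intron and 59.7% for 1093 genes with up to 5 kb. The letters CCCCGCC, the core of a GC box, stood on either strand in 51.3% of member promoters and in 44.9% of the 6402 promoters matched over all classes. CCGGAAG, an ETS-type motif, stood in 15.6% of member promoters against 22.8% of all, and TATAAA in 4.95% against 6.06%, each on either strand and with no overlap of the motifs removed. The shares are a description of these windows. As examples, the promoters of Lef1, a transcription factor of developing T cells (chr3:131110073-131110372, plus strand), and of Jarid2, a partner of the PRC2 histone methyltransferase (chr13:44730524-44730823, plus strand), are shown with CCCCGCC or its reverse complement in capitals, Jarid2 because its introns took the most reads of all members.
Lef1 promoter: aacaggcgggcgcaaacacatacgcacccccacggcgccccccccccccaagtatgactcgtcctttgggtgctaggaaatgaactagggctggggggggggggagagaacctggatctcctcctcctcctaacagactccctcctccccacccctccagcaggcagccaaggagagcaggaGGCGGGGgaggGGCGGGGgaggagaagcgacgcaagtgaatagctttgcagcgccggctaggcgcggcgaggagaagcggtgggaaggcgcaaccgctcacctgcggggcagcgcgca
Jarid2 promoter: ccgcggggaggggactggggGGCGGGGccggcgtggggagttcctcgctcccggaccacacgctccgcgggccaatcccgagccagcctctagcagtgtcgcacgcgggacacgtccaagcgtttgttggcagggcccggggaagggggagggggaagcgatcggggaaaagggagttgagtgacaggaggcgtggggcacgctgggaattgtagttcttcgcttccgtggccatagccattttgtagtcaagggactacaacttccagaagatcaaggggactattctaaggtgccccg

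The long introns together took 58742 and 66140 unique intron reads in the Control libraries and 282426 and 99366 in those labelled Prmt5 KO. That is 269.7, 304, 1297 and 456 reads per Mb of intron. Per 1000000 unique exon reads of the library, the density was 56.0 and 78.1 reads per Mb in Control and 111 and 101 in Prmt5 KO. Both libraries labelled Prmt5 KO lay above both Control libraries. The group means were 67.1 ± 15.7 (SD, n = 2) and 106 ± 7.42 (SD, n = 2), a log2 difference of 0.68 or 1.60-fold. The exact two-sided permutation test gave p = 0.3333, the smallest that 2 libraries against 2 allow.

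The intron share, unique intron reads over intron plus exon reads of the members, was 7.06% in Control 1, 11.3% in Control 2, 11.5% in Prmt5 KO 1 and 12.4% in Prmt5 KO 2. Control 1 was low, and the other 3 libraries lay close together. Their 95% Wilson intervals, which cover counting error only since the reads carry no molecular identifiers, ran from 7.01 to 7.12%, 11.2 to 11.3%, 11.4 to 11.5% and 12.3 to 12.5%. The group means were 9.16 ± 2.96% and 11.9 ± 0.64% (SD, n = 2 each), a difference of 2.79 percentage points that was smaller than the SD of the Control libraries (exact permutation p = 0.3333). Without Control 1 the difference was 0.69 points.

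The exon-exon share differed little between libraries. Of the members' unique exon reads, 54.3% and 54.0% crossed a junction in Control and 54.6% and 53.2% in Prmt5 KO. The groups overlapped, with means of 54.1 ± 0.22% and 53.9 ± 0.96% (SD, n = 2 each; difference -0.21 points, exact permutation p = 1). The pooled share includes Lars2, which held 23918, 13350, 13138 and 26365 of these exon reads. Only 0.82%, 0.64%, 3.01% and 0.16% of them crossed a junction, so Lars2 lowered the pooled share unequally between libraries. The pooled share without Lars2 was not tested, and the overlap of the groups may rest on this gene. The median member had 55.7%, 53.7%, 54.6% and 55.5%. In genes with 5 to 50 kb of intron the pooled share was 58.2 ± 0.09% in Control and 56.9 ± 0.68% in Prmt5 KO (SD, n = 2 each).

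**Figure D1:**
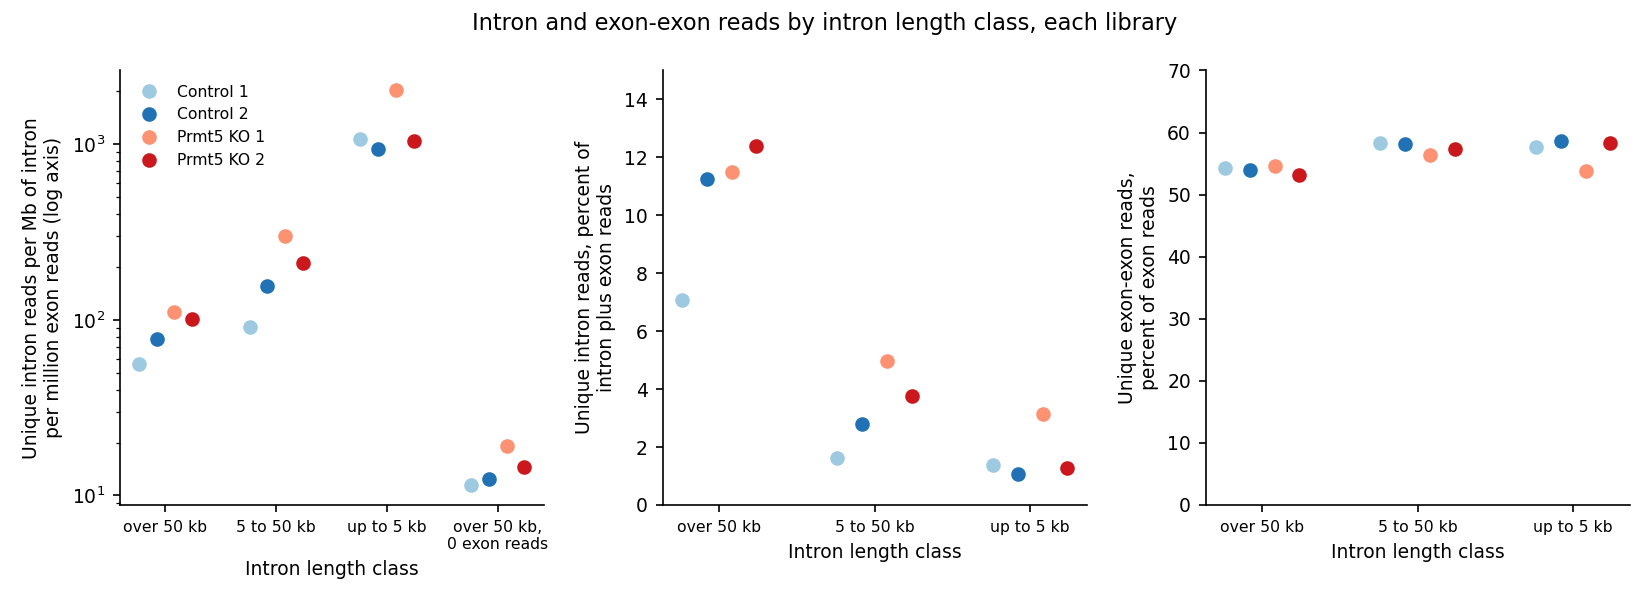
Unique intron reads per Mb of intron per 1000000 exon reads (left, log axis), pooled intron share in percent (middle) and pooled exon-exon share in percent (right) by intron length class; each point is 1 library and the fourth class at left holds long genes with 0 exon reads. The long genes have the lowest density of the expressed classes and the highest intron share in each library, and their exon-exon share lies between 53.2% and 54.6%.

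Pooled values weight the members with many reads, so the median member is given beside them. It had a density of 27.6, 45.2, 84.6 and 58.2 normalised reads per Mb, and a median intron share of 4.92%, 9.15%, 12.0% and 9.79%. By median share, Prmt5 KO 2 was close to Control 2, and Prmt5 KO 1 was the highest. The lower quartile of density was 12.9, 18.3, 50.1 and 20.8, so the low end of the distribution was raised in Prmt5 KO 1 alone. The 24, 71, 66 and 96 members without any intron read belonged to Prmt5 KO 1, Prmt5 KO 2, Control 1 and Control 2. Less the median of the long genes without exon reads, the median member stood at 25.1, 42.8, 70.6 and 55.8.

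**Figure D2:**
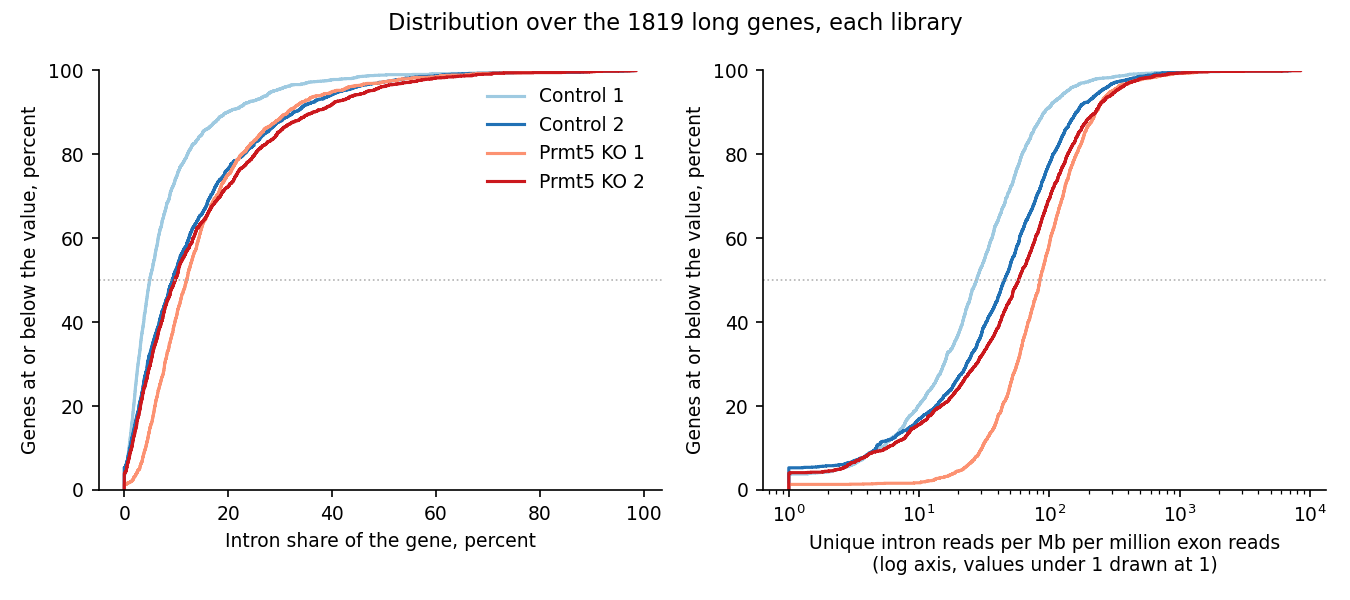
Cumulative percent of the 1819 members at or below a given intron share (left) and intron density (right, log axis, values under 1 drawn at 1), 1 line per library. Control 1 has the lowest median share, 4.92%, the lines of Control 2 and Prmt5 KO 2 lie close together (9.15% and 9.79%), and the density of Prmt5 KO 1 starts higher, with a lower quartile of 50.1.

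Long introns were thinly covered compared with short ones. Genes with 5 to 50 kb of intron had 90.8, 155, 298 and 210.1 normalised reads per Mb, which was 1.62, 1.98, 2.68 and 2.09 times the density of the members in the same library. Genes with up to 5 kb had 1074, 935, 2028 and 1045. The long genes without exon reads had 11.4, 12.3, 19.2 and 14.5, so the members had 4.90, 6.34, 5.79 and 6.96 times their density. Of the reads behind this floor, 49 genes took 75.3%, 75.1%, 37.0% and 77.7%. Without these 49 the floor was 3.40, 3.70, 14.6 and 3.89, by far the highest in Prmt5 KO 1, so the ratios depend on them. The log2 ratio of members to the 5 to 50 kb class was -0.70, -0.99, -1.42 and -1.06. It was lower in both libraries labelled Prmt5 KO than in either Control library, with group means of -0.84 ± 0.20 and -1.24 ± 0.26 (SD, n = 2 each; difference -0.40, exact permutation p = 0.3333). The difference was -0.21 with total in place of unique reads, -0.23 without the 10 members with the most intron reads and -0.22 without Prmt5 KO 1. With genes of up to 5 kb as the reference it was 0.14, in the other direction.

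Within the members, the share of intron reads was higher and the density lower in the longest genes. In the 672 genes with 50 to 75 kb of intron the pooled share was 3.95%, 7.66%, 7.90% and 8.62%. In the 141 genes with over 250 kb it was 20.3%, 26.0%, 24.2% and 28.1%. Over the same step the density went from 60.1, 99.5, 145 and 126 normalised reads per Mb to 51.3, 58.2, 78.8 and 83.7. The log2 difference in density between the groups was 0.81 in the shortest of these bins and 0.57 in the longest, a difference that was not tested. Across the 1819 members within a library, Spearman's rho of density with exon CPM ran from 0.38 to 0.56, which describes genes that share a library and its depth.

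**Figure D3:**
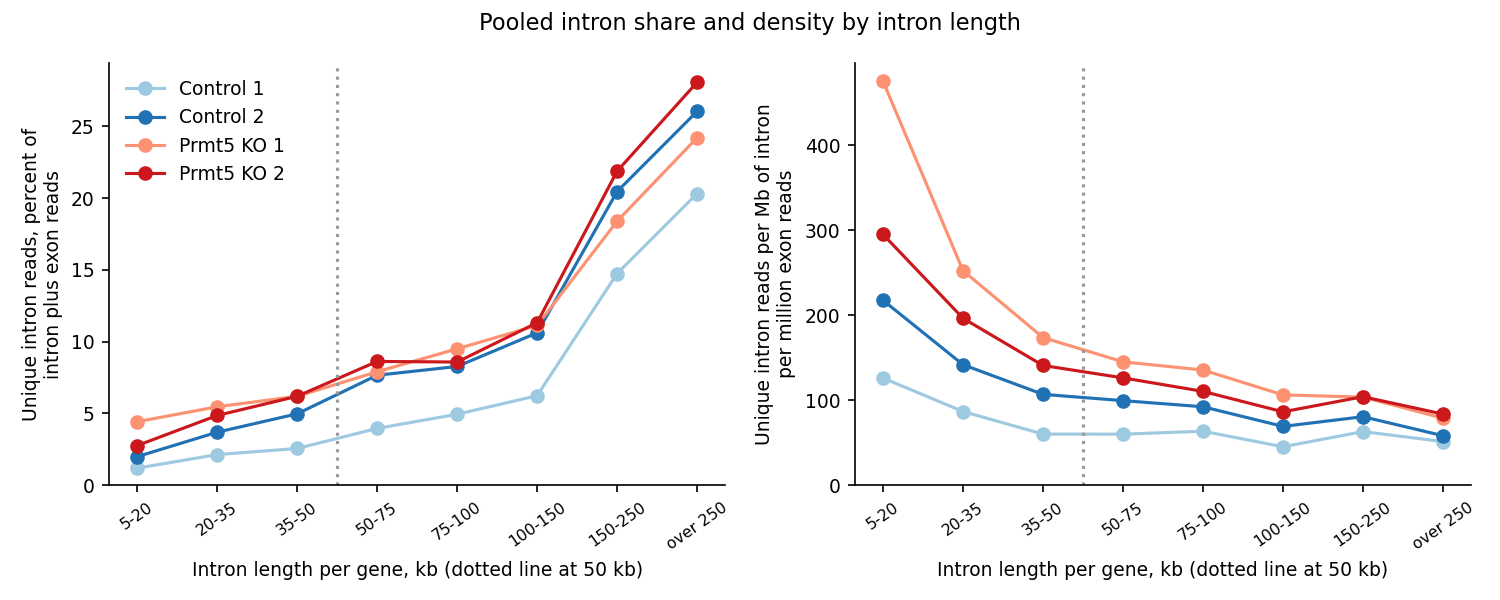
Pooled intron share in percent (left) and unique intron reads per Mb of intron per 1000000 exon reads (right) against the intron length of the gene in kb, 1 line per library; the dotted line marks 50 kb. Share rises with length to between 20.3% and 28.1% over 250 kb. The exception is Prmt5 KO 2, with 8.62% at 50 to 75 kb and 8.58% at 75 to 100 kb. Density is lower over 250 kb than between 50 and 75 kb, without a steady fall (Control 1 has 60.1 at 50 to 75 kb and 63.5 at 75 to 100 kb).

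The most intron-rich members were few. In 13 of the 1819, introns held over 50% of the gene's reads in every library. The 5 with the highest mean intron share were Camk2b, a subunit of a calcium-calmodulin kinase, Gphn, which encodes the scaffold gephyrin, Cdk8, the kinase of the Mediator complex, Camk1d, another calcium-calmodulin kinase, and Chd9, a chromatin remodeller. Camk2b (chr11:5969644-6066362, 87.6 kb of intron) had 3021, 2298, 6875 and 2392 unique intron reads beside 96, 75, 170 and 211 exon reads, and intron shares of 96.9%, 96.8%, 97.6% and 91.9%. Its share was high in all libraries and lowest in Prmt5 KO 2. Cdk8 (chr5:146231230-146302874, 63.9 kb) had 1539, 1772, 1369 and 1939 intron reads and shares of 94.9%, 98.1%, 83.7% and 97.2%. Camk1d (chr2:5293457-5714515) showed 95.0%, 96.0%, 82.8% and 95.0%, and Gphn (chr12:78226655-78684767) 97.6%, 95.8%, 85.3% and 98.6%. In these last 3 genes Prmt5 KO 1 was the lowest library, while the other 3 lay within a few points of each other. Chd9 ranged from 87.6% to 90.0%.

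Jarid2 (chr13:44729474-44921643, 182.5 kb of intron) had 5218, 4347, 6891 and 7037 unique intron reads, the largest total of any member. Its intron share was 85.8%, 88.3%, 59.2% and 84.8%, with Wilson intervals of 58.3 to 60.0% for Prmt5 KO 1 and 84.0 to 85.6% for Prmt5 KO 2. Both libraries labelled Prmt5 KO were below both Control libraries, by a small margin in Prmt5 KO 2. The log2 change of intron against exon reads was -1.25 ± 1.04 (SE; edgeR adjusted p = 0.819). The 10 members with the most intron reads took 29.97%, 22.3%, 10.8% and 22.9% of all intron reads of the members. Without these 10, chosen after their values were seen, the density of the rest was 39.7, 61.4, 100.3 and 78.5 and the pooled share 5.08%, 9.02%, 10.5% and 9.92%, so Prmt5 KO 1 became the highest library by share.

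At the opposite end, 24 members had no unique intron read in any library, and the region of each of the 24 overlapped another gene of the table. In 19 of them over 99% of exon reads crossed a junction in every library. Raly, an RNA-binding protein of the hnRNP family (chr2:154791096-154867261), had 0 intron reads beside 625, 601, 492 and 473 exon reads, which allows shares of up to 0.48%, 0.499%, 0.61% and 0.634%. Ankrd11, a chromatin regulator (chr8:122883337-122974793), had 0 beside 515, 221, 1254 and 309 exon reads, with an exon-exon share of 100% in all 4 libraries. Raly and Ankrd11, with Mrpl33, Commd1 and Piezo1, are named because they have the highest exon CPM among the 24, which do not differ in their share. How reads in overlapping regions were assigned is not given in the sources used here, so these zeros were not read as efficient splicing. In 7 members the exon-exon share was under 5% in every library, among them Lars2, the mitochondrial leucyl-tRNA synthetase. Lars2 was the member with the highest exon CPM, at 4911, 3678, 1029 and 6054, with intron shares of 0.046%, 0.0225%, 0.44% and 0.0152%. Only 0.82%, 0.64%, 3.01% and 0.16% of its exon reads crossed a junction. Its low intron share was therefore not read as efficient splicing either, and the source of its exon reads was not tested.

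The most intron bases in all were held by Pde4d, Celf2, Camta1, Wwox and Inpp4b. Pde4d, a cyclic AMP phosphodiesterase (chr13:108449948-109953461, 1491.5 kb of intron in 32 introns), had 63, 87, 588 and 129 unique intron reads and shares of 23.2%, 68.0%, 58.6% and 59.4%. Control 1 was low, and the groups overlapped. Celf2, a regulator of alternative splicing (chr2:6539694-7509563, 944 kb), showed 4.94%, 13.9%, 12.6% and 12.0%. Camta1, a calmodulin-binding transcription activator (chr4:150917322-151861876), showed 46.5%, 26.9%, 39.6% and 44.3%, and the oxidoreductase Wwox (chr8:114439655-115352708) 50.4%, 75.5%, 67.1% and 64.2%. Inpp4b, a phosphoinositide phosphatase (chr8:81342556-82125036), showed 12.4%, 23.5%, 18.2% and 14.9%. In none of these 5 genes did the shares of the groups separate, and the log2 change of intron against exon reads ran from -0.08 (Inpp4b) to 0.86 (Pde4d), with SEs of 1.04 to 1.46.

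Gene by gene, intron reads were then set against exon reads of the same gene with edgeR, as an interaction of read kind and group fitted over 7201 genes. Of the 1819 members, 1793 had the 10 intron reads needed. This minimum was summed over the libraries, so a gene could pass through Prmt5 KO 1, the deepest, alone. With an intron length over 1000 bases, it kept 4530 of 4895 genes with 5 to 50 kb of intron and 878 of 1434 with up to 5 kb. Members, shorter classes and all genes were thus filtered to unlike degrees, and the effect on the values compared below was not tested. None was called at an adjusted p under 0.05 in either direction, as none was over all genes (percentages called 0 higher and 0 lower). At an unadjusted p under 0.05 there were 34 members and 488 genes in all. DESeq2 also called 0 members, with 75 members and 764 genes in all at an unadjusted p under 0.05. The median log2 change of the members was 0.71, with 1405 of 1793 above 0, beside a median of 1.09 and 5905 of 7201 over all genes and of 1.25 in the 5 to 50 kb class. These values keep any shift shared by all introns. With each read kind scaled by its own TMM factors the median over all genes fell to 0.18, and that of the members was -0.20, with 742 of 1793 above 0. The sign of the members' median thus depends on the scaling, while it lay below that of the 5 to 50 kb class (0.33 with own scaling) in both.

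**Figure D4:**
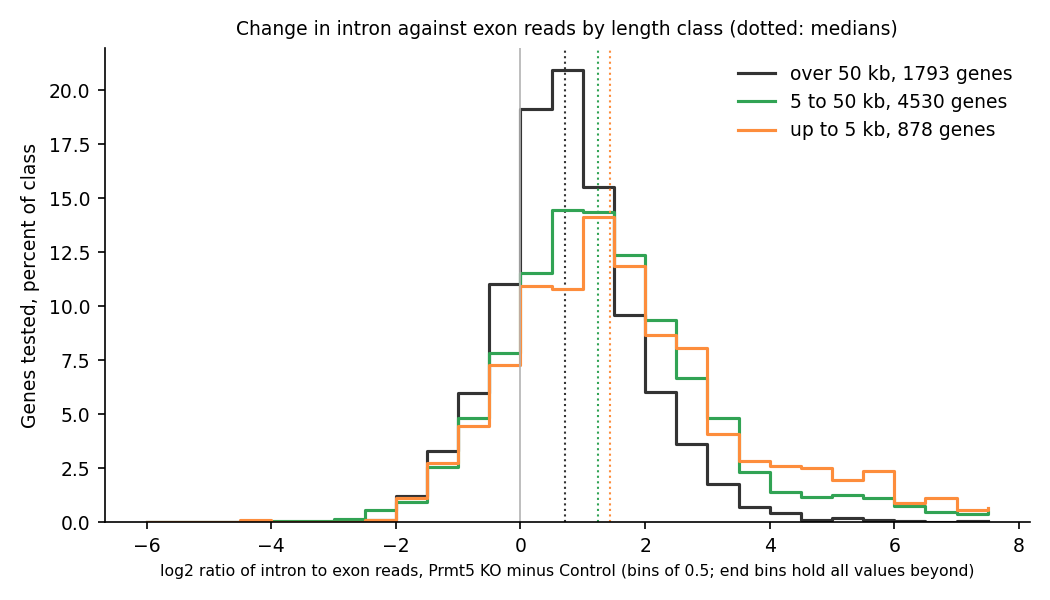
Percent of genes tested against the log2 change in the ratio of intron to exon reads, Prmt5 KO minus Control, in bins of 0.5 for the 3 intron length classes; dotted lines mark the medians. The median is 0.71 for members, 1.25 for genes with 5 to 50 kb of intron and 1.44 for those with up to 5 kb, all scaled by exon reads.

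In 624 of the 1793 members tested (34.8%) both libraries labelled Prmt5 KO had a higher intron share than both Control libraries, against 39.4% of all 7201 genes. In 45 members (2.51%) both were lower, against 1.93% of all genes. The members' percent of higher shares was no larger than that of all genes tested, a set from which the read minimum left out more of the shorter genes. The members with the smallest p whose groups did not overlap were Vrk1, Pinx1 and Mthfd1 on the higher side. Vrk1, a chromatin kinase (chr12:106010263-106077410, 63.4 kb of intron), had 3, 1, 128 and 66 unique intron reads, and its intron share was 0.42% and 0.27% in Control against 7.46% and 9.13% in Prmt5 KO. The groups lay far apart while the exon CPM overlapped (147, 101, 124 and 151), and the log2 change of intron against exon reads was 4.61 ± 1.33 (SE; edgeR adjusted p = 0.717). Mthfd1, an enzyme of folate metabolism (chr12:76255232-76319820), had 4, 1, 60 and 34 intron reads and shares of 0.34%, 0.13%, 2.38% and 6.54% (log2 change 4.05 ± 1.34, SE; edgeR adjusted p = 0.717). Pinx1, an inhibitor of telomerase (chr14:63860312-63919859), had 0 intron reads in both Control libraries, which allows shares of up to 3.09% and 4.69%, and 56 and 50 in those labelled Prmt5 KO, with shares of 17.2% and 34.0%. All 3 also lay above 0 with own scaling of each read kind.

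On the lower side, Smad1, a transducer of BMP signals, showed shares of 9.46%, 25.0%, 7.88% and 1.69%, Rapgef2, an activator of Rap GTPases, 39.8%, 42.2%, 14.1% and 19.3%, and Dusp10, a phosphatase of JNK and p38, 9.85%, 34.7%, 7.61% and 6.27%. In each of these the exon CPM was higher in both libraries labelled Prmt5 KO, as in Dusp10 with 24.4, 36.4, 113 and 127. The changes of intron against exon reads were -2.15 ± 1.50, -1.81 ± 1.36 and -1.74 ± 1.35 (log2 ± SE), and none passed (edgeR adjusted p = 0.775 to 0.805).

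Intron reads taken alone, scaled by exon reads, were testable in 1549 members of 5395 genes. No member was called (background 0% in either direction). An unadjusted p under 0.05 was found for 126 of the 1549 members, beside 522 of all 5395 genes. The median log2 difference was 0.75, with 1286 of 1549 above 0, beside 0.88 over all genes. DESeq2 called 4 of the 1549 members higher (0.258%), below the 0.593% of all genes that it called higher, and 0 lower (background 0%). They were Tmod1, Cwc27, Vrk1 and Pinx1 (adjusted p = 0.011, 0.018, 0.024 and 0.024). Scaling by the intron reads' own TMM turned the median of the members to -0.091, while that of all genes was 0.05. Cwc27, a spliceosome-associated cyclophilin (chr13:104631140-104817142, 183.1 kb), had 6, 4, 211 and 80 intron reads and a density of 6.80, 5.62, 98.7 and 96.3 normalised reads per Mb. Its exon CPM of 18.3, 27.8, 16.1 and 21.4 overlapped between groups, and its intron share was 6.32%, 3.81%, 50.6% and 46.2%. Tmod1, an actin-capping tropomodulin (chr4:46038935-46116032), had densities of 2.84, 24.6, 259 and 473, with exon CPM of 8.01, 13.2, 77.5 and 81.5, so both read kinds were higher in the libraries labelled Prmt5 KO. On the lower side, the receptor of vitamin D, Vdr (chr15:97854425-97910630), had intron densities of 222, 158, 79.6 and 4.36, the last from 1 intron read. Exon reads of Vdr were lower as well, as given below, and its intron shares of 5.39%, 4.38%, 13.2% and 0.72% overlapped between groups. The zinc finger gene Zfp64 had 114, 215, 98.8 and 39.1, and Plxdc1, a plexin-domain protein, 167, 229, 163 and 52.9.

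Exon reads, for which the rule asked a minimum in each library, were tested in all 1819 members among 10438 genes. edgeR called 0 members higher and 0 lower (background 0% higher and 0.00958% lower), with 153 members and 894 genes in all at an unadjusted p under 0.05. DESeq2 called 16 members higher (0.88%) and 7 lower (0.385%), no larger a share than the 0.929% and 0.719% of all genes that it called. The smallest p with groups that did not overlap belonged to Vdr and Itgae, the integrin alpha E of intraepithelial T cells. Vdr had 195 and 186 CPM in Control and 24.1 and 31.7 in Prmt5 KO, a log2 difference of -2.78 ± 0.34 (SE; edgeR adjusted p = 0.062, DESeq2 adjusted p = 1.14e-09). Itgae had 370.2 and 307 CPM against 43.8 and 58.6 (-2.73 ± 0.34, SE; edgeR adjusted p = 0.062, DESeq2 adjusted p = 4.72e-11). Runx3, a transcription factor of cytotoxic T cells, had 67.1 and 55.1 CPM against 9.16 and 12.9 (-2.48 ± 0.44, SE; edgeR adjusted p = 0.12). Above them on the other side were Tmod1 (2.91 ± 0.44), the kinase Rps6ka2 (53.4, 27.3, 227 and 184 CPM) and the G protein regulator Rgs12 (14.8, 17.6, 83.6 and 69.8 CPM), with edgeR adjusted p of 0.108 to 0.12. DESeq2 called all 6. With either library labelled Prmt5 KO left out, the edgeR adjusted p of Tmod1, Vdr and Itgae was 0.035 to 0.044, but the spread then came from the 2 Control libraries, and the lone library was assumed to vary like them. With either Control library left out it was 0.11 to 0.212. In Itgae the intron share was 1.31%, 2.02%, 9.11% and 1.54%, so Prmt5 KO 1 had the highest share and the other 3 libraries lay close together.

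Splice junctions of the members showed no shift in common. Exon-exon reads against the other exon reads of the gene were tested in all 1819 members among 8084 genes. None was called (background 0% in either direction). An unadjusted p under 0.05 was found for 42 members, beside 258 of all 8084 genes, and DESeq2 called 0 members. The median log2 change of the members was 0.01, beside -0.03 over all genes. Brwd1, a bromodomain protein (chr16:95992092-96082526), had exon-exon shares of 43.0%, 38.8%, 23.9% and 14.9%, lower in both libraries labelled Prmt5 KO, and intron shares of 3.27%, 3.60%, 14.0% and 7.33%, higher in both. Its log2 change in exon-exon reads was -1.50 ± 0.34 (SE; edgeR adjusted p = 1). Prkag2, a subunit of AMP-activated kinase (chr5:24862744-25100642), likewise had exon-exon shares of 66.4%, 80.1%, 55.4% and 51.5% and intron shares of 6.37%, 12.5%, 16.6% and 29.4%. In Uck2, a uridine-cytidine kinase, exon-exon shares were 39.7%, 44.9%, 29.1% and 30.6%. In the other direction, Csnk1g1, a casein kinase (chr9:65908974-66045009), went from 4.58% and 5.48% to 21.2% and 24.1% (2.46 ± 0.44, SE; edgeR adjusted p = 1), while its intron share, at 6.43%, 18.9%, 21.2% and 31.6%, was higher as well. Chn2, a Rac GTPase-activating protein, showed exon-exon shares of 89.1%, 90.6%, 93.9% and 93.2%, and the exonuclease Dis3l2 88.2%, 79.6%, 94.3% and 96.1%.

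Transcription factors of lymphocytes were the first of 8 lists by role, with 54 of 80 listed genes among the members. Intron against exon reads lay above 0 in 40 of the 53 tested, with a median of 0.54 that turned to -0.38 with own scaling, and 0 were called. Over all genes tested 82.0% lay above 0, with a median of 1.09, and the shares lay without overlap higher in 39.4% and lower in 1.93%, which are the values to set beside each list. In 19 of the 54 (35.2%) the intron share was higher in both libraries labelled Prmt5 KO, and in 1 (1.85%) it was lower. In none of the 8 lists was the percent of members with higher intron shares without overlap above that of all genes. Each list's median also lay below that of all genes. The members as a class lay below all genes too, with 34.8% higher and a median of 0.71. Set beside that class, RNA processing (39.0%, 0.83) and DNA damage and p53 genes (35.7%, 0.73) lay above in both values. Lymphocyte transcription factors (35.2%) and the ubiquitin system (37.9%) did so in the percent only, and the other lists in neither. These differences were not tested. Ets1, which acts in T cell development, had shares of 2.85%, 6.72%, 5.73% and 6.81%, and the chromatin organiser Satb1 3.70%, 5.54%, 6.29% and 6.39%. Lef1 had exon CPM of 466, 504, 1395 and 1569 and intron shares of 6.24%, 9.50%, 8.54% and 4.83%, which overlapped. Nfatc2, a calcium-regulated factor, had shares of 1.37%, 5.94%, 7.36% and 20.8% (log2 change 2.24 ± 1.37, SE; edgeR adjusted p = 0.737). Zbtb16, which encodes PLZF, the factor that directs iNKT development (chr9:48654311-48835945, 176.5 kb of intron), had 345, 368, 2394 and 436 intron reads and shares of 24.4%, 37.4%, 31.7% and 25.4%. Zbtb16 thus had a high intron share in all 4 libraries, and its groups overlapped (log2 change -0.14 ± 1.05, SE; edgeR adjusted p = 0.984).

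T cell signalling genes gave 75 members of 101 listed. Of these 60 lay above 0 in the change of intron against exon reads, with a median of 0.61 (-0.31 with own scaling), and 24 (32.0%, against 39.4% of all genes) had higher shares in both libraries labelled Prmt5 KO and 3 (4%) lower. Ptprc, the phosphatase CD45, had shares of 2.08%, 3.11%, 6.47% and 7.34% and did not overlap (log2 change 1.50 ± 0.98, SE; edgeR adjusted p = 0.756). The adaptor Skap1 had 10.02%, 7.46%, 11.8% and 8.69%, and the costimulatory receptor Cd28 3.60%, 9.69%, 8.25% and 7.52%. Ralgps2, an exchange factor for Ral, had 1, 2, 96 and 7 intron reads and shares of 0.54%, 2.41%, 13.3% and 7.61%, so few reads stood behind 3 of its 4 values.

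Chromatin regulators gave 71 members of 102 listed and the smallest median change, 0.40 over 70 tested (-0.52 with own scaling), with 17 higher (23.9%) and 4 lower (5.63%) shares without overlap, against 39.4% and 1.93% of all genes. Smarca4, the ATPase of BAF complexes, had shares of 0.84%, 1.59%, 1.86% and 1.24%, and the DNA methyltransferase Dnmt3a 3.20%, 5.25%, 5.80% and 4.80%. Trrap, a subunit of acetyltransferase complexes, had 0.83%, 3.65%, 8.65% and 46.5%, where Prmt5 KO 2 stood far above the rest. RNA processing genes gave 41 members of 104 with a median of 0.83 (-0.09 with own scaling), below the 1.09 of all genes. Of the 41, 34 lay above 0 (82.9%, against 82.0% of all genes), and 16 had higher (39.0%, against 39.4%) and 0 lower shares, so these shares were near the background. Drosha, the nuclease that releases miRNA hairpins, had shares of 9.05%, 5.72%, 13.5% and 10.9% and exon CPM of 270.4, 322, 519 and 748. The splicing regulator Mbnl1 had 5.86%, 3.78%, 9.28% and 10.4%, the deadenylase scaffold Cnot1 0.97%, 2.45%, 3.57% and 8.18%, and the polypyrimidine-tract-binding protein Ptbp3 0.83%, 0.25%, 3.43% and 7.47%. Shares of all 4 were higher in both libraries labelled Prmt5 KO, and none was called by edgeR (adjusted p = 0.717 to 0.888).

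Medians of the 4 other lists lay between 0.50 and 0.73. Adhesion and cytoskeleton genes (45 members of 85 listed) had a median change of 0.69, or -0.25 with own scaling, and 14 higher (31.1%) and 0 lower shares. Of these 45, 40 lay above 0 (88.9%, against 82.0% of all genes), and 13 with own scaling. In the ubiquitin, DNA damage and membrane traffic lists below, 77.2%, 82.1% and 74.1% lay above 0 when scaled by exon reads. The most expressed adhesion and cytoskeleton members had low shares. Msn, which encodes moesin, had 0.14%, 0.46%, 0.32% and 0.43%, and Myh9, a non-muscle myosin, 1.03%, 3.58%, 3.80% and 2.54%. Genes of the ubiquitin system (58 of 83) had a median of 0.68, or -0.25, and 22 higher (37.9%) and 2 lower (3.45%) shares. Among them the ligase Trip12 had 1.29%, 1.24%, 4.11% and 4.42%, the cullin Cul3 1.35%, 0.97%, 6.10% and 4.12%, and the deubiquitinase Usp47 0.41%, 0.33%, 4.33% and 5.53% (log2 change 3.73 ± 1.26, SE; edgeR adjusted p = 0.717). DNA damage and p53 genes (28 of 70) had a median of 0.73, or -0.18, with 10 higher (35.7%) and 0 lower. Tdp1, which repairs topoisomerase lesions, had 1, 0, 71 and 10 intron reads. Membrane traffic genes (58 of 92) had a median of 0.50, or -0.42, with 17 higher (29.3%) and 1 lower (1.72%), so in these 4 lists too the higher shares were no more frequent than the 39.4% of all genes. In Uvrag, a regulator of autophagy, the shares were 7.83%, 3.20%, 20.9% and 28.4%, and in the endocytic adaptor Eps15 3.21%, 5.11%, 4.65% and 3.75%. No member of the 8 lists was called by edgeR in any of the 4 tests.

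**Figure D5:**
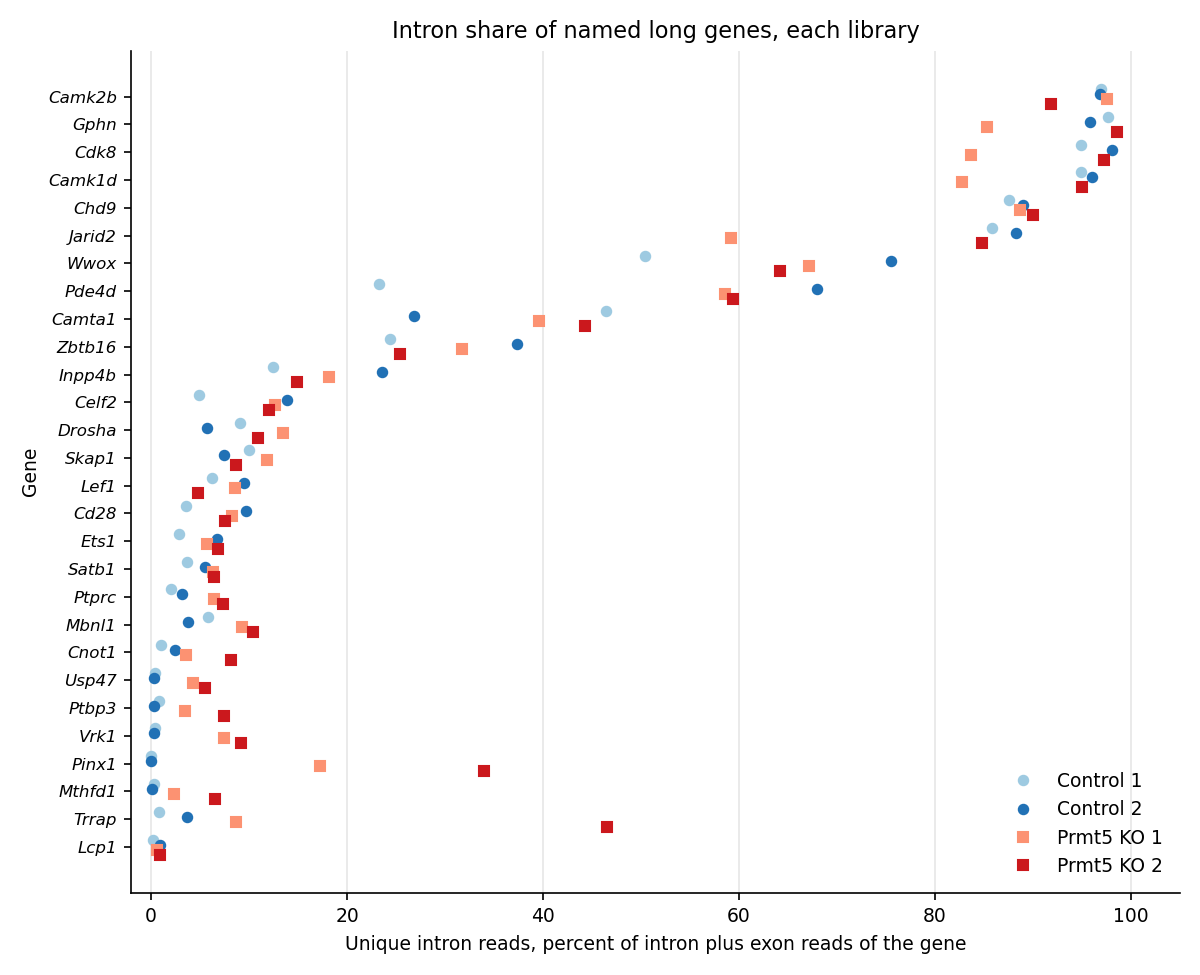
Intron share in percent of the gene's intron plus exon reads for 28 named long genes; circles are the 2 Control libraries and squares the 2 labelled Prmt5 KO. Shares run from under 1% in Lcp1 to over 90% in Camk2b, overlap between groups in genes such as Zbtb16 and Cd28, and separate in Vrk1, Pinx1, Usp47 and Ptprc.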

How the data were processed

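RNA-seq was done on 4 libraries, grouped by their titles. Per the labels' protocols, RNA was taken with RNeasy Plus Micro and cDNA made and amplified with SMART-seq v4. The authors deposited 1 table of raw read counts for 46517 genes, with exon, exon-exon and intron reads as unique and total counts. Column names show single, trimmed reads and 1 run name for the 4 libraries, per the file headers. The submitters' processing notes name mm10 and edgeR. The mapper, gene models and strand setting are not stated in the sources used here. The authors' normalised values, fold changes and p-values were not used. In the file a region starts at base 0; starts printed here have 1 added.

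Unique counts were used. Unique reads that lie in 2 genes or on the other strand cannot be told apart from the host's own intron reads, so values of overlapping members are uncertain. Tests were fitted on the whole table by quasi-likelihood in edgeR 4.0.16 (R 4.3.3), with filterByExpr for single read kinds, at least 10 intron or exon-exon reads in total for ratios, TMM factors of exon reads as scale and Benjamini-Hochberg adjustment, with a threshold of 0.05. CPM uses the TMM-scaled exon library size. An SE is the log2 coefficient over the root of F. Library-level values were compared by the exact permutation test. The exon, intron and ratio tests were tested on simulated data. DESeq2 1.42.0, a replicate block, other scalings, filters and lengths, and each library left out were the alternatives. Shares of 0 are given with the limit that 3 counts set.

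Members and role lists were chosen with earlier results of these data known. Genes are named by rule: the most intron bases, the highest exon CPM, the highest and lowest intron share (ties by exon CPM), the smallest p with groups that do not overlap in each test, the 3 most expressed and the smallest p of each role list, Zbtb16, and genes at the limits. Hosts of miRNAs and the 10 members with the most intron reads were chosen after their values were seen. MicroRNAs on chromosome 18 were left aside. No genome sequence was used, so intron and splice-site sequences are not shown. Some items are not reported here.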

Additional observations from a re-analysis of the deposited data

How the results depend on the processing

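Depth and the number of libraries limit these results: with 2 against 2 the library-level tests cannot pass, and 1 library differs in depth and in its floor of intron reads. The pooled log2 difference in density, 0.68, was 0.99 as a median of the members and 0.94 as that median less the median of long genes without exon reads, an alternative chosen after seeing the data. It ranged from 0.44 to 0.92 with each library left out (0.60 without Prmt5 KO 1 and 0.44 without Control 1). The difference in pooled share ranged from 0.69 to 4.88 points and that in exon-exon share from -0.89 to 0.46. The log2 ratio to shorter genes ranged from -0.58 to -0.22 and was 0.14 against genes with up to 5 kb of intron. Other settings for these 4 values, total reads, 100 kb, 100 exon reads, no overlap and, for all but the exon-exon share, without the 10 most intron-rich members, moved them by less than the spread between replicates, which is wide here (the ratio was -0.21 with total reads), with the sign of the exon-exon difference varying.

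Members called by exon reads were 0 higher and 0 lower in edgeR. They were 28 and 10 with a replicate block (121 and 116 of all 10438 genes) and 16 and 7 with DESeq2 (97 and 75). Without a filter they were 20 and 11 (116 and 108 of 16703). Counts of members called in fits that leave 1 library in a group are not given. By intron reads they were 1 higher with the replicate block, 4 with DESeq2 and 1 without a filter (5, 32 and 12 of all genes), from 0 to 22 higher (22 without Control 2, 11 without Control 1, 1 without Prmt5 KO 1) and from 0 to 4 lower (4 without Prmt5 KO 2). The median intron difference of the members, 0.75, ranged from 0.57 to 1.33 with each library left out and was -0.091 with the intron reads' own TMM. Intron against exon reads gave 0 calls under every alternative with all libraries. Their median, 0.71, lay between 0.25 with Control 1 left out and 1.16 with Control 2 left out. It was -0.20 with own TMM and 0.73 with the replicate block. Exon-exon reads gave 3 higher and 2 lower without Control 1 and 0 otherwise. The cause of these differences between settings was not tested. The replicate numbers of the titles are shared by only 2 pairs, and same-numbered libraries deviated together with a correlation of 0.142 for exon and 0.112 for intron reads, which cannot establish a pairing from 2 pairs, and no label gives them a shared source. All 6 genes named for their exon reads passed with the block. Of 749 values of named genes under an alternative, 643 kept their direction and their side of the threshold, 35 passed it and 71 changed sign without a call in the main test.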

Other observations

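Long genes without a single unique exon read still held some dense introns. Among the 1180 such genes, 49 had at least 200 unique intron reads in total, and these 49 took 75.3%, 75.1%, 37.0% and 77.7% of the intron reads of all 1180 in Control 1, Control 2, Prmt5 KO 1 and Prmt5 KO 2. Without them the density of the rest was 3.40, 3.70, 14.6 and 3.89 reads per Mb per 1000000 exon reads. Il31ra, a cytokine receptor subunit with 54.2 kb of intron, had 2967, 2429, 2295 and 3544 intron reads and 0 exon reads, or 616, 625, 197 and 781 intron reads per 1000000 exon reads. Sntg1, a syntrophin, had 1174, 768, 1434 and 791 intron reads, and Myo3a, a myosin, 251, 505, 647 and 468. Among members, Jarid2 had 1083, 1119, 590.3 and 1551 intron reads per 1000000 exon reads, Camk1d 838, 759, 291 and 1269, and Cdk8 319, 456, 117 and 427. The row Rn18s-rs5, which has no exon length, had 6850, 9774, 3405 and 11059 reads per 1000000 exon reads. Of 20 intron-rich rows listed per 1000000 exon reads (8 of these 1180 genes, 10 members and 2 rows without an exon length), Prmt5 KO 1 was the lowest library in 9, Il31ra, Jarid2, Camk1d, Cdk8 and Rn18s-rs5 among them. It was the highest in 7, among them Chd9 (142, 136, 272 and 240), Kirrel3 (52.5, 57.9, 184 and 158) and Zbtb16 (71.6, 94.7, 205 and 96.1), and neither in 4.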
